A study of Homo sapiens with 8 samples.

Results

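EPCAM, MUC1, MUC16, ESRP1, ESRP2, GRHL1, GRHL2, ELF3 and OVOL1 are genes of epithelial identity and of the epithelial cell surface, and their transcripts were followed in RMG1, a cell line of ovarian clear cell carcinoma. These 9 genes were chosen by name, with earlier results of these data known. All were found among the 57736 gene IDs of the count table. Low counts kept MUC16 out of the tests, so 8 of them were among the 16657 genes tested. The study asked how ARID1A, a DNA-binding subunit of SWI/SNF chromatin remodelling complexes, bears on condensin II, which compacts chromosomes and has CAPH2 (gene NCAPH2) as a subunit.

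Total RNA was sequenced from 4 groups of 2 libraries. The wild-type group was RMG1 with ARID1A and CAPH2 both intact per the labels. The knockout group was RMG1 edited at ARID1A with CRISPR, with CAPH2 intact. The shRNA control group carried a control hairpin (shControl) with both genes intact, and the knockdown group carried a hairpin against CAPH2 (shCAPH2) with ARID1A intact. Whether the knockout is 1 clone, which guide or hairpin was used, and whether both libraries of a group represent separate cultures is not stated in the labels. All p-values here thus rest on the spread between the 2 libraries of each group, which could be technical only.

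Epithelial cells are held together by junctions and carry a distinct set of surface glycoproteins. EPCAM is a homophilic adhesion molecule used to define carcinoma cells, and MUC1 and MUC16 are transmembrane mucins whose shed ectodomains are the tumour markers CA15-3 and CA125. ESRP1 and ESRP2 are RNA-binding proteins that drive epithelial splicing choices, while GRHL1 and GRHL2 (Grainyhead-like), the ETS factor ELF3 and the zinc-finger repressor OVOL1 are transcription factors of epithelial differentiation.

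Libraries held 24559547 to 37378691 counts, and levels are given in CPM, counts scaled to a common effective library size, in which 1 count equals 0.0261 to 0.0413 CPM. ARID1A transcripts were lower but present in the knockout, at 6.14 ± 0.739 CPM (SD, n = 2) against 10.4 ± 2.33 in the wild type, and NCAPH2 fell from 24.9 ± 1.24 to 8.86 ± 0.174 CPM in the knockdown. NCAPH2 was also 0.34 (log2) lower in the knockout. That call was lost without wild-type replicate 2 (-0.26) or knockout replicate 1 (-0.25). The 24 matched genes of a list of other epithelial surface and junction genes summed to 1721 CPM in the lowest library and 3015 CPM in the highest. Summed levels of 7 fibroblast markers stayed between 0.290 and 1.12 CPM, of 6 leukocyte markers between 1.30 and 5.15 CPM, and of 4 endothelial markers between 0.157 and 1.03 CPM. Within these ranges the knockout libraries were the highest for the fibroblast list (1.07 to 1.12 CPM) and the leukocyte list (4.05 to 5.15 CPM, beside 1.30 to 2.98 in the wild type) and the lowest for the endothelial list. Among these markers COL1A2, COL3A1, CD3E and KDR had 0 counts in all 8 libraries, and others were detected. Over the wild-type pair 4 of 7 fibroblast, 3 of 6 leukocyte and 1 of 4 endothelial markers were at 0. Over the knockout pair 2 of each list were. PTPRC reached 2.12 CPM and LUM 0.531 CPM in the mean of the knockout.

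Promoter sequences are shown for MUC1, GRHL1 and ELF3, the members whose transcripts changed most clearly and for which RefSeq promoter windows on GRCh38.p14 were at hand. Each runs 5′ to 3′ on the gene's strand from 250 bases before to 50 bases after the annotated start, and capitals mark matches on either strand to 1 of 7 motifs.
MUC1 (chr1:155192866-155193165, minus strand): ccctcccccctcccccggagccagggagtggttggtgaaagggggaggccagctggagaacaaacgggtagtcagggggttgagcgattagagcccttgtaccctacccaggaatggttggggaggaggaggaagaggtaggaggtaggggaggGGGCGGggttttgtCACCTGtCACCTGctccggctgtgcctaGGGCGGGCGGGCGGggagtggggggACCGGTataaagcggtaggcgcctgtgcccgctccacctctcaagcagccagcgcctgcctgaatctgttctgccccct
GRHL1 (chr2:9951443-9951742, plus strand): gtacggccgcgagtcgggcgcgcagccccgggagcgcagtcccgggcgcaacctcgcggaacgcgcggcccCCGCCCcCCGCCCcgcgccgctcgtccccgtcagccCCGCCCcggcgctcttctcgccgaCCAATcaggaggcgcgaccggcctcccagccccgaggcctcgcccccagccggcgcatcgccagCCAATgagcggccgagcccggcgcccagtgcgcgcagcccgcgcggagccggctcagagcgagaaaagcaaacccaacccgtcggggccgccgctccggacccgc
ELF3 (chr1:202010337-202010636, plus strand): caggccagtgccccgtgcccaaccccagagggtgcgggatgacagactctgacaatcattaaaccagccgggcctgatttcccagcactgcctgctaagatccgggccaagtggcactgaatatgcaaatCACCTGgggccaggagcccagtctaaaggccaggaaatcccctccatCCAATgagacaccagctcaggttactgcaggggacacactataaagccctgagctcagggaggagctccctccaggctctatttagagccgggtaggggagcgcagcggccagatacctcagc

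The motifs were ACCGGT (the core of the Grainyhead-like site), GGAAGT (ETS), CACCTG (the E-box bound by ZEB and SNAI repressors), CCGTTA (OVO), TGANTCA (AP-1), GGGCGG (GC box) and CCAAT. Of these 3 windows, MUC1 alone held ACCGGT, which began 29 bases before the start and which 1.83% of 35116 RefSeq promoters hold. MUC1 also had 2 CACCTG E-boxes, 82 and 75 bases before the start, and 4 GC boxes, of which the 3 nearest the start overlap. ELF3 had 1 CACCTG, 120 bases before the start, and 1 CCAAT box. CACCTG occurs in 20.6% of promoters and CCAAT in 34.6%. GRHL1 had 3 GC boxes, a motif found in 45.0% of promoters, and 2 CCAAT boxes. None of the 3 windows held the ETS (22.8% of promoters), OVO (3.07%) or AP-1 (7.71%) letters. N in TGANTCA stood for any base, and 7.71% is the share of that whole pattern. The GRHL1 window was 79.7% G or C with 52 CG pairs, and the ELF3 window was 59.0% with 7, against a median of 58.7% and 14 over all promoters. MUC1 has another annotated start 6 bases away, which holds the same matches.

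In the ARID1A knockout MUC1 and GRHL1 fell and EPCAM rose modestly, and in the CAPH2 knockdown OVOL1, ELF3 and GRHL1 rose. GRHL1 was the only member called in both comparisons, and it moved in opposite directions. Transcripts of the splicing regulators ESRP1 and ESRP2 and of GRHL2 passed the test in neither. Calls are adjusted p under 0.05 in edgeR's quasi-likelihood test fitted to all 16657 genes and 8 libraries. By that rule 3 of 8 members (37.5%) were called in the knockout, beside 34.5% of all genes tested, which is near the background. In the knockdown 3 of 8 were called, all of them higher, beside 15.8% of all genes called in either direction and 7.62% called higher. The members' median log2 change was -0.11 in the knockout and 0.11 in the knockdown, and the medians of all genes were 0.00 in both. In bulk RNA, fewer cells with a transcript and less of it per cell cannot be told apart. With so few members these shares say nothing particular about the set.

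**Figure D1:**
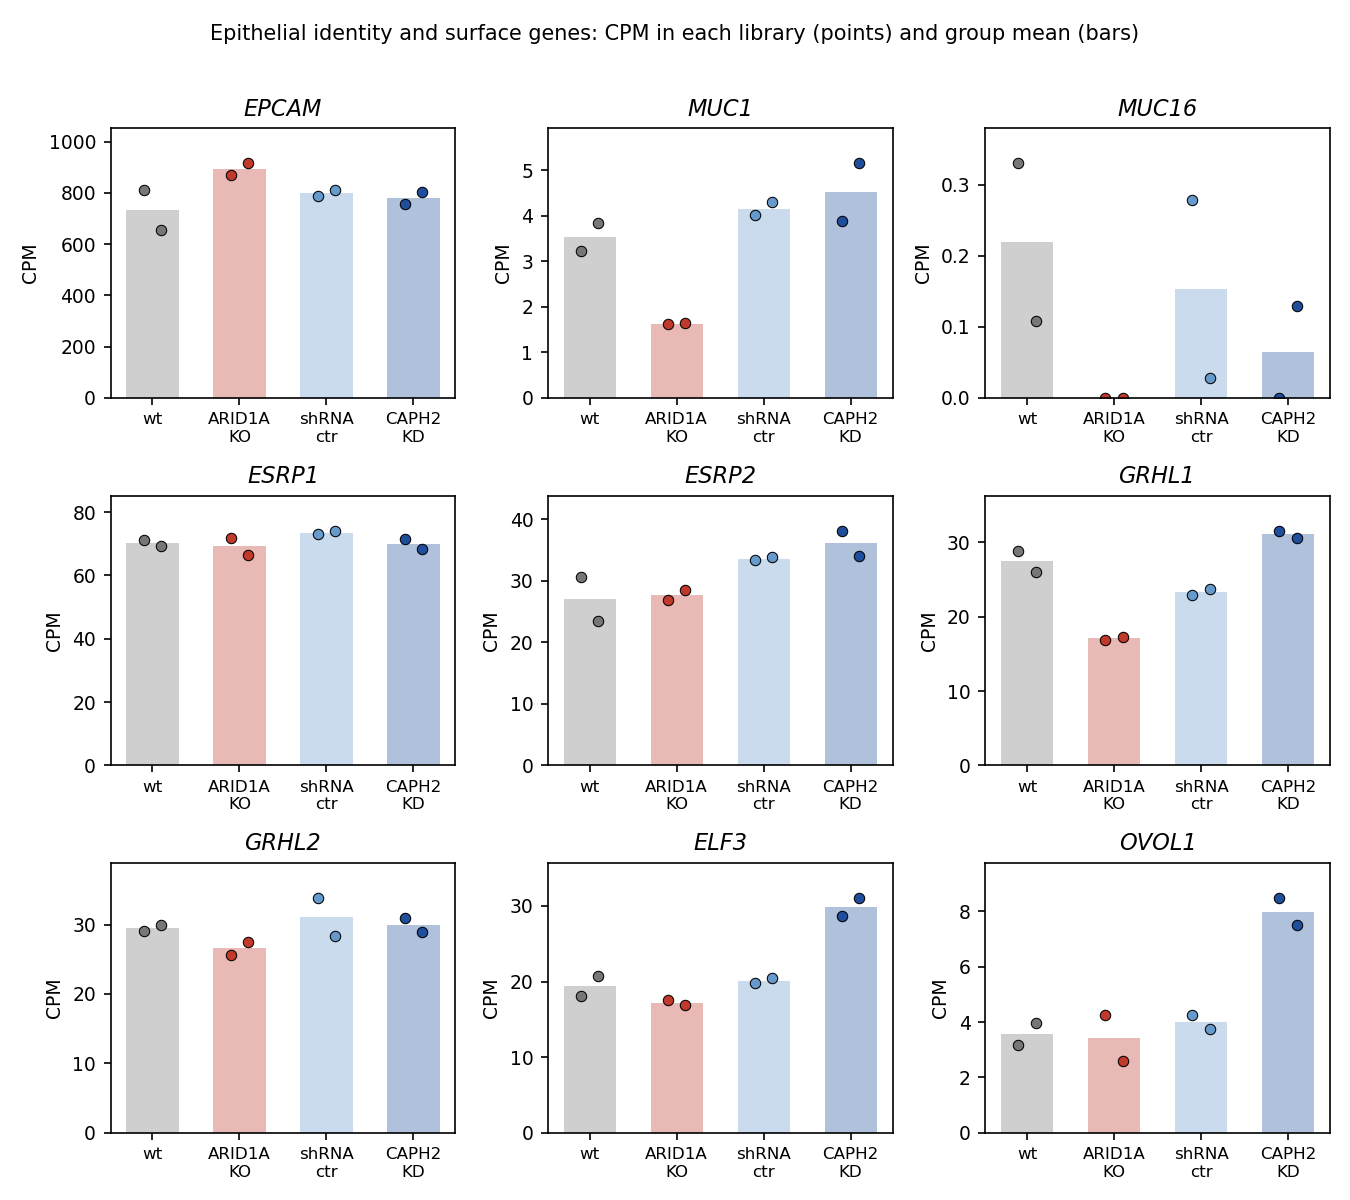
CPM of each member in the 8 libraries, with points for libraries and bars for the mean of the 2 libraries of a group, in 1 panel per gene with its own axis. MUC1 and GRHL1 were lowest in the knockout libraries, and OVOL1 and ELF3 were highest in the knockdown libraries.

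EPCAM (ENSG00000119888, chromosome 2) was the most abundant member. It stood at 810.2 and 654 CPM in the wild-type libraries, 868 and 916 in the knockout, 786 and 813 in the shRNA control and 758 and 805 in the knockdown. The knockout libraries were above all others, and the remaining 3 groups overlapped. The rise from wild type to knockout was 21.9% (log2 0.29, SE 0.08), with an adjusted p of 0.0201 by edgeR's quasi-likelihood test. The size of that rise depended on the wild-type pair: it was 0.14 without wild-type replicate 2 and 0.45 without replicate 1. The call was lost when only the 4 libraries of the comparison were fitted (adjusted p = 0.0579, edgeR) and without knockout replicate 2 (adjusted p = 0.128, edgeR). EPCAM gave a log2 difference of -0.03 (SE 0.08, adjusted p = 0.846 by edgeR) between knockdown and shRNA control. Its effects differed by 0.32 (adjusted p = 0.0687 by edgeR), a difference that passed the test with DESeq2 (0.32), without the filter on low counts (0.32) and without wild-type replicate 1 (0.48).

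MUC1 (ENSG00000185499, chromosome 1) had low counts, with 59 to 160 counts per library. It reached 3.22 and 3.84 CPM in the wild type, 1.62 and 1.65 in the knockout, 4.02 and 4.30 in the shRNA control and 3.88 and 5.16 in the knockdown. The knockout libraries lay well below the other 6, and the knockdown libraries spanned the controls. MUC1 fell 2.16-fold in the knockout (log2 -1.11, SE 0.22, adjusted p = 0.00213 by edgeR). Its knockdown difference was 0.12 (SE 0.20, adjusted p = 0.761 by edgeR), and the knockout effect was lower than the knockdown effect by an interaction contrast (log2 -1.23, SE 0.30, adjusted p = 0.00957 by edgeR). The fall held its direction and its call in each alternative run, with values from -1.24 to -0.98. A further protein-coding ID that overlaps MUC1 on the same strand had 0 CPM in every group.

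MUC16 (ENSG00000181143, chromosome 19), the CA125 mucin, was close to absent. Wild-type libraries held 8 and 3 counts, knockout libraries 0 and 0, shRNA control libraries 9 and 1, and knockdown libraries 0 and 4. A count of 0 over the knockout pair allows a mean of up to 0.0401 CPM (3 counts over the group), beside 0.220 ± 0.157 CPM in the wild type. That limit covers counting error only, and no test was made at this depth. The other transmembrane mucins were low as well: of 8 listed, MUC20 alone was counted often enough to test, at 3.94 ± 0.914 CPM in the wild type and 3.62 ± 0.160 in the knockout (SD, n = 2; log2 -0.12, adjusted p = 0.701 by edgeR).

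ESRP1 (ENSG00000104413, chromosome 8) was the steadiest member. It was at 71.1 and 69.4 CPM in the wild type, 71.9 and 66.6 in the knockout, 73.0 and 74.2 in the shRNA control and 71.5 and 68.4 in the knockdown. The whole range over 8 libraries was thus narrower than the gap between the wild-type pair of EPCAM in relative terms. ESRP1 differed by -0.02 (SE 0.06, adjusted p = 0.825) in the knockout and by -0.07 (SE 0.06, adjusted p = 0.475) in the knockdown on the log2 scale by edgeR.

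ESRP2 (ENSG00000103067, chromosome 16) was at 30.7 and 23.4 CPM in the wild type, 26.9 and 28.5 in the knockout, 33.3 and 33.8 in the shRNA control and 38.1 and 34.0 in the knockdown. The wild-type pair spanned the knockout pair, and the 4 hairpin-carrying libraries were above the other 4. The log2 difference was 0.04 in the knockout (SE 0.11, adjusted p = 0.839) and 0.10 in the knockdown (SE 0.11, adjusted p = 0.594) by edgeR. ESRP2 overlaps NFATC3 on the opposite strand, at 20.3 CPM in the wild type, and an antisense gene on its own strand (ENSG00000262160), at 7.16 CPM. The strand setting of the counting is not given, so reads of these genes may not be fully separated.

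GRHL1 (ENSG00000134317, chromosome 2) was the member that responded in both comparisons. It stood at 28.8 and 26.1 CPM in the wild type, 16.9 and 17.3 in the knockout, 22.9 and 23.7 in the shRNA control and 31.6 and 30.6 in the knockdown. No group overlapped another, and the order from the top was knockdown, wild type, shRNA control, knockout. GRHL1 fell 1.61-fold in the knockout (log2 -0.68, SE 0.08, adjusted p = 4.51e-05 by edgeR) and rose 1.33-fold in the knockdown (log2 0.41, SE 0.08, adjusted p = 0.00328 by edgeR). The effects differed by -1.10 (SE 0.11, adjusted p = 2.2e-05 by edgeR). GRHL1 kept both calls in each alternative, from -0.75 to -0.61 in the knockout and from 0.38 to 0.44 in the knockdown. The shRNA control itself was 0.23 below the wild type (log2 -0.23, adjusted p = 0.0595 by edgeR), which did not pass the test, and this comparison shares its libraries with the other 2.

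GRHL2 (ENSG00000083307, chromosome 8), the closest relative of GRHL1 among the members, was at 29.0 and 30.0 CPM in the wild type, 25.7 and 27.5 in the knockout, 33.8 and 28.3 in the shRNA control and 30.9 and 29.0 in the knockdown. The knockout pair was the lowest, and the other groups overlapped. The difference of -0.15 (SE 0.09, adjusted p = 0.240 by edgeR) in the knockout did not pass the test, nor did -0.05 (SE 0.09, adjusted p = 0.767 by edgeR) in the knockdown.

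ELF3 (ENSG00000163435, chromosome 1) was at 18.1 and 20.7 CPM in the wild type, 17.5 and 16.9 in the knockout, 19.8 and 20.4 in the shRNA control and 28.7 and 31.0 in the knockdown. The knockdown pair was above all other libraries. ELF3 rose 1.48-fold in the knockdown (log2 0.57, SE 0.09, adjusted p = 0.00088 by edgeR), and its knockout difference of -0.17 (SE 0.09, adjusted p = 0.167 by edgeR) did not pass the test. The rise held in each alternative, between 0.51 and 0.61. The knockout effect was below the knockdown effect by 0.74 (log2 -0.74, adjusted p = 0.00104 by edgeR). The antisense gene ELF3-AS1 stayed at or under 0.376 CPM in the mean of each group.

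OVOL1 (ENSG00000172818, chromosome 11) was at 3.18 and 3.98 CPM in the wild type, 4.25 and 2.61 in the knockout, 4.24 and 3.74 in the shRNA control and 8.48 and 7.51 in the knockdown. Both knockdown libraries were above the other 6, which overlapped one another. OVOL1 rose 2.00-fold in the knockdown (log2 1.00, SE 0.22, adjusted p = 0.00931 by edgeR), the largest rise among the members. The call was lost without shRNA control replicate 2 (log2 0.91, adjusted p = 0.0870 by edgeR) or knockdown replicate 1 (log2 0.90, adjusted p = 0.0718 by edgeR). OVOL1 differed by -0.07 (SE 0.24, adjusted p = 0.856 by edgeR) in the knockout. Its effects differed by -1.07 (SE 0.32, adjusted p = 0.0301 by edgeR), a call that was lost in 5 of the 8 fits that each left out 1 library: wild-type replicate 2 (-0.90), knockout replicate 2 (-0.76), shRNA control replicate 1 (-1.16) or 2 (-0.98), or knockdown replicate 1 (-0.98). OVOL1-AS1 on the opposite strand went from 0.0898 to 0.557 CPM (log2 2.60, adjusted p = 0.0655 by edgeR) in the knockdown, which did not pass the test.

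**Figure D2:**
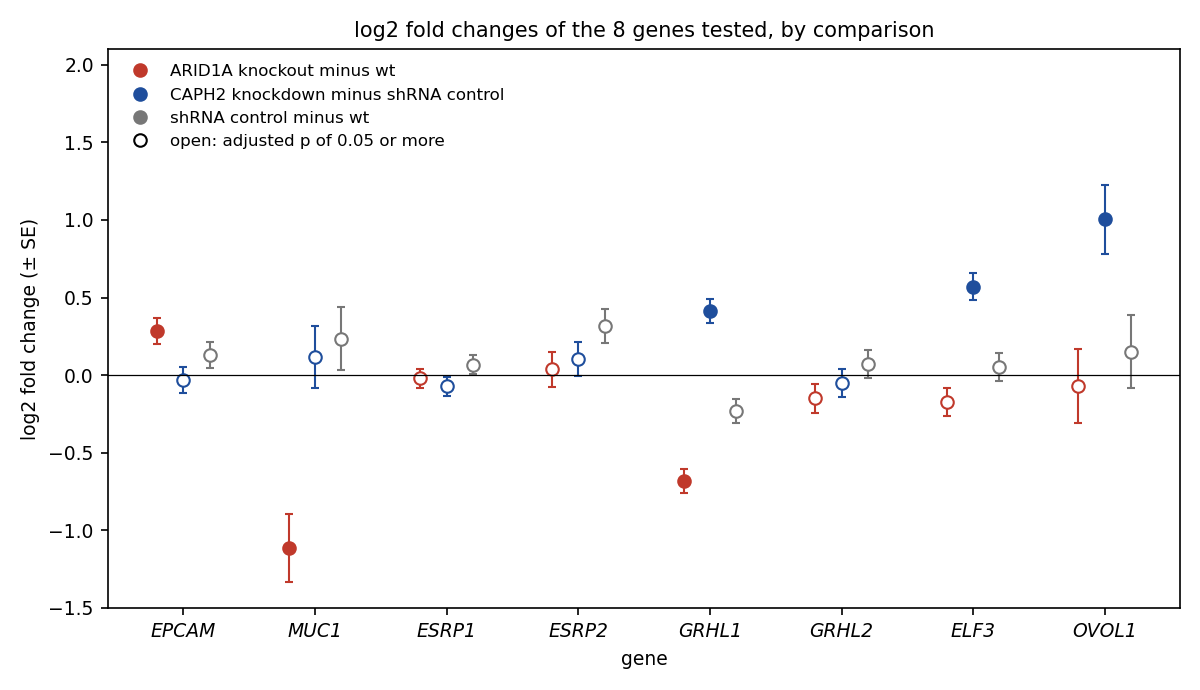
Log2 fold changes of the 8 tested members in the knockout against the wild type, the knockdown against the shRNA control and the shRNA control against the wild type. Bars are 1 standard error of the edgeR fit. Points are filled where the gene was called in that comparison and open where it was not. GRHL1 lies on opposite sides of 0 (-0.68 and 0.41), MUC1 is far below 0 in the knockout alone (-1.11) and OVOL1 far above it in the knockdown alone (1.00).

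In the interaction contrast, 4 of 8 members (MUC1, GRHL1, ELF3 and OVOL1) were called and all were lower, beside 26.3% of all genes called in either direction, 12.3% called higher and 14% called lower. The shRNA control differed from the wild type in 0 of 8 members by edgeR, beside 19.2% of all genes, and GRHL1 and ESRP2 had an unadjusted p under 0.05. With no filter on low counts ESRP2 was called (0.32). Without wild-type replicate 1 EPCAM (0.29) and ESRP2 (0.51) were called, and without wild-type replicate 2 GRHL1 was (-0.30).

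Per length (CPM per kb of merged exon length), levels in the wild type ran from 291 for EPCAM through 14.4 for ESRP1, 4.87 for GRHL2, 4.86 for ESRP2, 3.45 for GRHL1 and 2.70 for ELF3 to 0.931 for OVOL1, 0.749 for MUC1 and 0.00501 for MUC16. In this order only GRHL2 and ESRP2 overlapped between libraries. EPCAM and ESRP1 led and MUC1 and MUC16 closed the order in each group. GRHL1 stood above ELF3 in the wild type and the shRNA control (2.93 and 2.80) and below it in the knockout (2.15 and 2.39) and the knockdown (3.91 and 4.15), with no overlap between libraries. That order rests on the merged lengths of 7952 bases for GRHL1 and 7191 for ELF3. Before division by length, libraries of GRHL1 and ELF3 overlapped in the knockout (means of 17.1 and 17.2 CPM) and in the knockdown (31.1 and 29.9 CPM). Factors of epithelial differentiation were thus present at levels far below the EPCAM transcript.

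Other epithelial transcription factors, given from a list of 10 relatives and partners had 6 tested genes. In the knockout 1 rose and 4 fell, beside 16.8% of all genes called higher and 17.8% called lower, with a median log2 change of -0.62. GRHL3, the remaining Grainyhead-like gene, fell from 5.40 ± 0.367 to 0.692 ± 0.203 CPM (log2 -2.95, adjusted p = 5.02e-06 by edgeR), so GRHL1 and GRHL3 fell while GRHL2 did not pass the test. KLF5, an epithelial zinc-finger factor, fell from 94.2 ± 0.937 to 36.6 ± 0.640 CPM (log2 -1.36). OVOL2 (-0.59), named after its value was seen, also fell, and KLF4 rose from 0.956 ± 0.226 to 2.43 ± 0.182 CPM (1.35). The ELF3 relative EHF, also outside the rule for named genes, gave -0.06 in the knockout and -0.11 in the knockdown, where ELF3 rose. In the knockdown KLF5 fell (-0.37) and the other 5 factors passed no test, beside 8.22% of all genes called lower. OVOL2 gave -0.55 (adjusted p = 0.0669 by edgeR) there, opposite in sign to OVOL1. The repressors of epithelial genes included ZEB1, which rose from 1.14 ± 0.0304 to 7.24 ± 0.115 CPM in the knockout (log2 2.66, adjusted p = 2.06e-05 by edgeR), while the other 3 tested repressors, ZEB2, SNAI1 and TWIST1, passed no test in either comparison.

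The surface genes around EPCAM and MUC1 came from a list of 25 epithelial surface and junction genes, of which 23 were tested. That list, like the other lists here, was chosen with earlier results of these data known. In the knockout 13 fell (56.5%) and 2 rose (8.7%), beside 17.8% and 16.8% of all genes, with a median of -0.36. CDH1, the classical epithelial cadherin, rose from 152 ± 1.21 to 296 ± 7.12 CPM (log2 0.96, adjusted p = 7.93e-08 by edgeR) alongside EPCAM. CRB3, a polarity protein, rose by 0.52 on the log2 scale, a call that was lost without wild-type replicate 2 (0.29) or knockout replicate 2 (0.32) and in a fit of the 4 libraries alone (0.51). CDH3 fell (-1.83), as did ST14, a membrane serine protease also called matriptase (-1.65). In the knockdown 4 rose and 1 fell, together 21.7% of the 23 beside 15.8% of all genes (7.62% higher and 8.22% lower). ST14 rose from 62.3 ± 1.25 to 186 ± 0.820 CPM (log2 1.58, adjusted p = 2.26e-08 by edgeR), CLDN7, a tight junction claudin that binds EPCAM, rose by 0.40, SPINT2 (0.23) and CGN (0.37), named after their values were seen, rose less, and PROM1 fell (-0.82). The CLDN7 call was lost without shRNA control replicate 1 (0.38) or knockdown replicate 2 (0.33), and the count of 4 that rose ranged from 2 to 8 over the alternatives. ST14, like GRHL1, thus fell in the knockout and rose in the knockdown, and its effects differed by -3.23 (SE 0.09, adjusted p = 1.12e-09 by edgeR). The shRNA control was higher than the wild type in 13 of these 23 genes and lower in 2, beside 9.13% and 10.1% of all genes, and that comparison shares libraries with both others. PROM1 was among the 13, at 99.7 CPM in the wild type, 161 in the shRNA control (log2 0.69) and 91.6 in the knockdown.

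A further list of 19 epithelial genes, mainly cytoplasmic but with the membrane proteins FXYD3, MAL2, TMEM30B and TMC4, had 17 tested genes. In the knockout 14 fell (82.4%) and 1 rose (5.88%), beside 17.8% and 16.8% of all genes, with a median of -0.48. The largest falls were those of S100A14, a calcium-binding protein (-2.76, from 69.6 ± 15.9 to 10.3 ± 0.426 CPM), and FXYD3 (-2.01), while MAL2, a protein of apical transport, rose by 0.64. In the knockdown FXYD3 (0.65) and BSPRY (0.39) rose and MAL2 fell (-0.30), together 17.6% of the 17 beside 15.8% of all genes. The BSPRY call was lost without shRNA control replicate 2 (0.32), knockdown replicate 1 (0.36) or knockdown replicate 2 (0.41). The shRNA control was higher than the wild type in 7 of these 17 genes and lower in 2, beside 9.13% and 10.1% of all genes. The baselines of FXYD3 differed, at 4.96 ± 0.408 CPM in the wild type and 13.6 ± 0.322 in the shRNA control. EPCAM thus rose in the knockout in libraries in which most tested genes of both epithelial lists fell, a call lost in 2 of the alternatives. CDH1, CRB3 and MAL2 of these lists rose as well. Summed markers of other cell types reached at most 5.15 CPM per list, for the leukocyte list in the knockout. That is above the knockout means of the members MUC1 (1.63 CPM) and OVOL1 (3.43 CPM). The leukocyte gene PTPRC went from 0.0207 to 2.12 CPM (adjusted p = 0.000238 by edgeR) in the knockout, and the fibroblast gene LUM was at 0 counts outside it and at 0.531 CPM in it. CD14 and TEK, a leukocyte and an endothelial gene, fell there. Their part in these results was not tested.

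**Figure D3:**
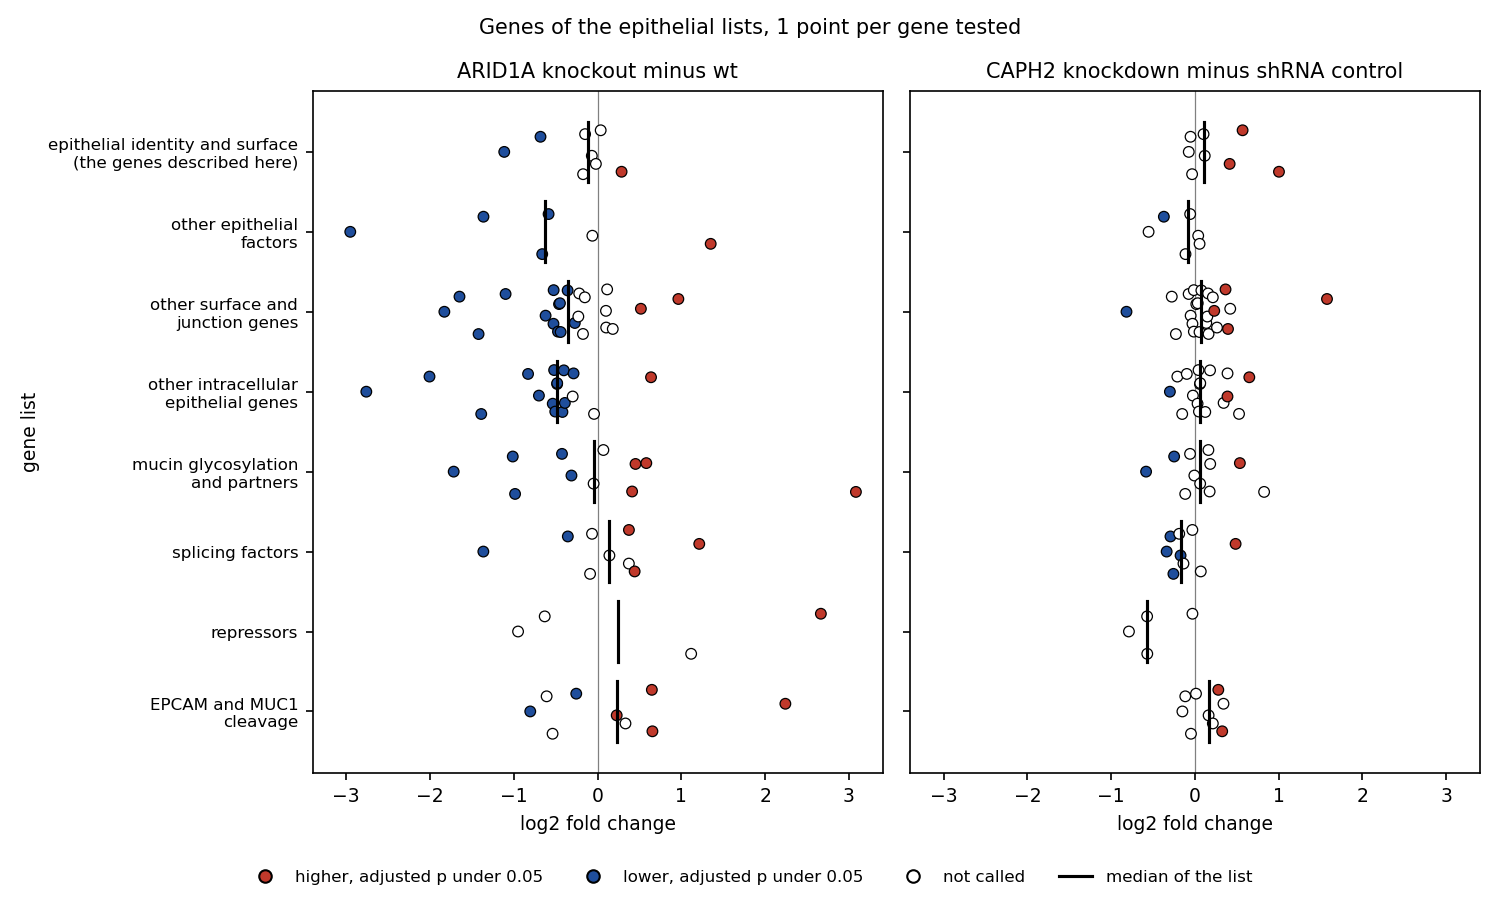
Log2 fold changes of the tested genes of each list in the knockout against the wild type and the knockdown against the shRNA control, with 1 point per gene, filled where called, and a bar at the list's median. The surface and junction genes (median -0.36) and the other intracellular epithelial genes (median -0.48) lie mostly below 0 in the knockout, and their medians in the knockdown are 0.08 and 0.06.

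The enzymes that build mucin O-glycans on MUC1 moved in both directions. Of 11 tested genes of mucin glycosylation and mucin binding, 4 rose (36.4%) and 5 fell (45.5%) in the knockout, beside 16.8% and 17.8% of all genes (median -0.05). GALNT6 rose from 0.116 ± 0.0108 to 1.01 ± 0.344 CPM (3.08) and C1GALT1, the core 1 synthase, by 0.58. ST3GAL1, which caps core 1 with sialic acid, fell (-1.72), as did GALNT2 (-1.01), which starts O-glycan chains. In the knockdown C1GALT1C1, the chaperone of the core 1 synthase, rose by 0.54, and ST3GAL1 (-0.58) and GCNT1 (-0.25) fell, beside 7.62% of all genes called higher and 8.22% called lower. GCNT1 was higher in the shRNA control (123 CPM) than in the wild type (94.9 CPM, log2 0.38), and its knockdown level was 104 CPM. The calls of C1GALT1C1 (0.51 to 0.55) and GCNT1 (-0.27 to -0.23) were lost whenever any 1 library of that comparison was left out. That of ST3GAL1 was lost without shRNA control replicate 1 (-0.57) or knockdown replicate 2 (-0.51), and that of GALNT6 in the knockout without knockout replicate 2 (2.68). ADAM10 and ADAM17, proteases that can shed surface proteins such as these, rose in the knockdown by 0.28 and 0.33.

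ESRP1 and ESRP2 did not pass the test in either comparison, and 9 other splicing factors that act on epithelial or mesenchymal exons were all tested. In the knockout 3 rose (33.3%) and 2 fell (22.2%), beside 16.8% and 17.8% of all genes (median 0.14). QKI, which promotes mesenchymal splicing patterns, rose from 59.7 ± 3.22 to 139 ± 1.22 CPM (1.21), and MBNL1 rose by 0.44. MBNL2 (-1.36) and PTBP1 (-0.36) fell. In the knockdown RBM47, which favours epithelial splicing, rose by 0.49 (adjusted p = 0.0463 by edgeR) and 4 of the 9 fell, beside 8.22% of all genes, among them PTBP1 (-0.34) and QKI (-0.29). That count of 4 ranged from 0 to 6 over the alternatives. RBM47 lost its call without any 1 of the 4 libraries (0.38 to 0.58) and with DESeq2 (0.49). QKI lost its call without shRNA control replicate 1 (-0.28) or knockdown replicate 2 (-0.25), and PTBP1 without shRNA control replicate 1 (-0.31) or knockdown replicate 1 (-0.30). Exon use was not analysed here.

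Around the called members, the median change of neighbouring genes was at most 0.16 in size, though some neighbours were called themselves. Among the 40 nearest tested protein-coding neighbours (20 on each side, by GENCODE 29 order), the median log2 change in the knockout was 0.14 around EPCAM, -0.03 around MUC1 and -0.03 around GRHL1. Of the 40, 11 were called higher and 5 lower around EPCAM. Around MUC1 and around GRHL1, 5 were called higher and 8 lower. Over all genes 16.8% were called higher and 17.8% lower in the knockout. KLF11, the gene that follows GRHL1, fell in the knockout by more than GRHL1 did (log2 -1.66, adjusted p = 1.83e-05 by edgeR). In the knockdown the neighbour medians were 0.03 around GRHL1, 0.16 around ELF3 and -0.01 around OVOL1. There 7 of the 40 were called higher and 5 lower around GRHL1, 8 and 3 around ELF3, and 1 and 4 around OVOL1. Over all genes 7.62% were called higher and 8.22% lower in the knockdown.

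**Figure D4:**
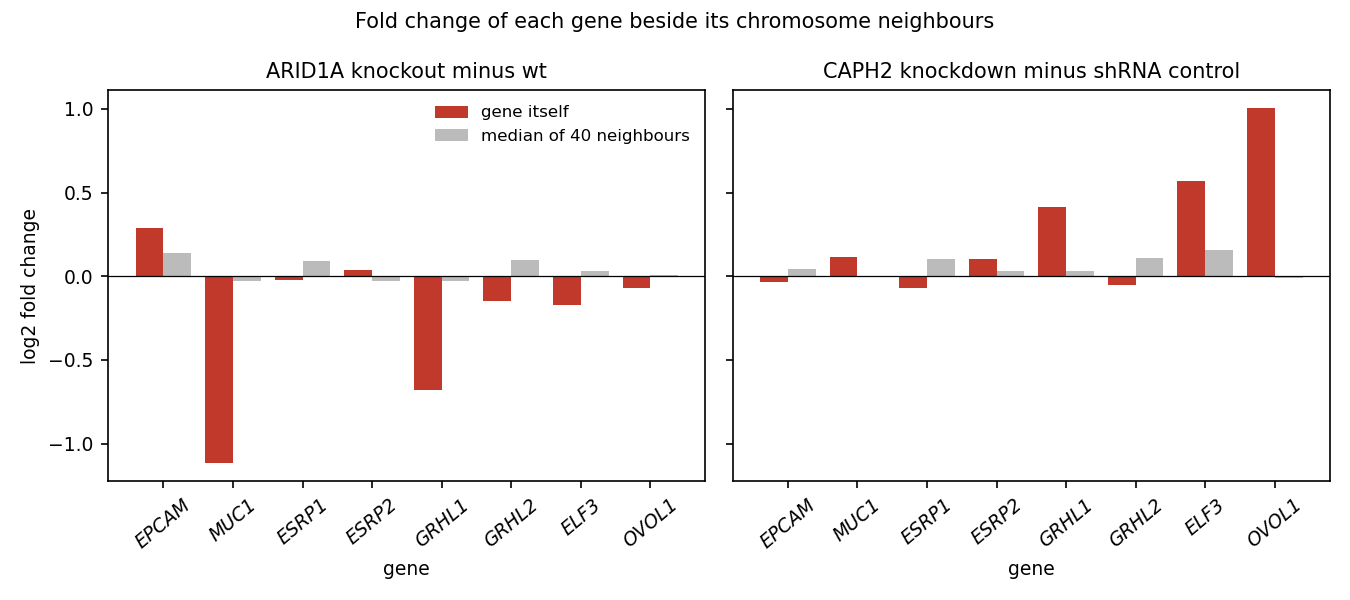
Bars of the log2 fold change of each tested member beside the median of its 40 nearest tested protein-coding neighbours, for both comparisons. The medians lie between -0.03 and 0.16, while MUC1 (-1.11), GRHL1 (-0.68) and OVOL1 (1.00) lie well outside that range.

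By root mean square difference of centred log2 CPM over the 8 libraries, among 11448 protein-coding genes with a mean of at least 1 CPM, the pattern nearest to MUC1 was that of DAB2IP (0.10), followed by PLXND1 (0.12). GRHL1 was nearest to FUCA1 (0.06) and NECAB3 (0.07). ELF3 was nearest to CPD (0.07) and CARD6 (0.08), and OVOL1 to ZC3H12A (0.14) and SMPDL3B (0.16). EPCAM was nearest to UBE2E3 (0.03) and ANP32E (0.03). ESRP1 was nearest to ARFGAP2 (0.03) and ADRM1 (0.03), ESRP2 to RPL37 (0.05) and NRBP1 (0.06), and GRHL2 to TRPC4AP (0.03) and WDR73 (0.05). ESRP1 and GRHL2 varied least of the tested members over the libraries. Their root mean square spreads were 0.05 and 0.11 (log2), beside 0.13 for EPCAM and 0.21 for ESRP2. How many genes lay close to each member was not counted. These 8 libraries share 4 groups, and likeness here describes the libraries only.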

How the data were processed

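The values deposited are expected counts by Ensembl gene ID, 1 column for each of the 8 libraries. RSEM 1.2.12 and Bowtie2 were run on hg19, per the submitters' processing notes. Bowtie2's version, the annotation release and the strand setting: not given in the sources used here. Per the labels' protocols, Trizol RNA was made into TruSeq Total RNA libraries. The deposited expected counts were whole already, so rounding changed 0 values. RSEM splits reads that fit more than 1 gene, which makes values of overlapping or near-identical genes uncertain.

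IDs were named from a table of Ensembl IDs (51959 IDs) and GENCODE 29 on GRCh38 (342 IDs), which also gave chromosomes, gene order and merged exon lengths. No ID was found for 3 genes on the lists. Results of some list genes are not reported here. Promoter windows came from RefSeq on GRCh38.p14, with entries outside chromosome 8 for 4 members. No coordinates of the hg19 counts are given.

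Genes were filtered with filterByExpr (16657 of 57736 kept), scaled by trimmed means of M values (TMM) and fitted in R 4.3.3 with edgeR 4.0.16, group means of all 8 libraries together and no block. Residual degrees of freedom were 4, and the common biological coefficient of variation was 7.74%. A Benjamini-Hochberg adjusted p under 0.05 was called. The knockout was set against the wild type, the knockdown against the shRNA control, these effects against each other, and the shRNA control against the wild type. Comparisons that share libraries are not independent. The pipeline was tested on simulated data.

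The alternatives were RLE and upper quartile scaling, no filter, a filter of 1 CPM in 2 libraries, a replicate block, DESeq2 1.42.0, fits of 4 libraries, and leaving out each library. Named genes were the members, ARID1A and NCAPH2, the 2 called genes per list and direction with the largest change and at least 1 CPM in a group, and the 2 genes nearest in pattern to each tested member. Other names were chosen after their values were seen and are marked so in the text or are markers of other cell types, overlapping genes, chromosomal neighbours, or list genes outside the rule (EHF, ZEB2, SNAI1, TWIST1 and MUC20). The members and the lists were chosen with earlier results of these data known.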

Additional observations from a re-analysis of the deposited data

How the results depend on the processing

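Leaving out 1 library lowered the number of genes called in the knockdown from 2639 to between 1360 and 1524, and that between shRNA control and wild type from 3205 to as few as 1553, with 3410 at most. Members called in the latter comparison numbered 0, became 1 with no filter on low counts, and lay between 0 and 2 when a library was left out. Some members that passed no test changed sign. With 1 library left out, the knockout value ranged from -0.077 to 0.034 for ESRP1, from -0.15 to 0.24 for ESRP2 and from -0.46 to 0.24 for OVOL1, and upper quartile scaling gave 0.0017 for ESRP1. The knockdown value ranged from -0.10 to 0.30 for MUC1 and from -0.18 to 0.078 for GRHL2. The difference of the effects ranged from -0.0031 to 0.11 for ESRP1, from -0.25 to 0.13 for ESRP2 and from -0.23 to 0.025 for GRHL2. The shRNA control minus wild type ranged from -0.018 to 0.29 for EPCAM, from -0.058 to 0.20 for GRHL2, from -0.042 to 0.15 for ELF3 and from -0.0018 to 0.33 for OVOL1. The cause was not tested.

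Same-numbered libraries showed no strong shared shift: their deviations from group means correlated between -0.0239 and 0.0296 over the genes tested. That cannot show whether they were prepared in pairs, which the labels do not state. With the replicate block, the calls numbered 5500 in the knockout, 2483 in the knockdown, 4209 for the difference and 3026 between shRNA control and wild type, and no member changed its call. Among the other genes named, the block ended the knockdown call of RBM47 (0.49, adjusted p = 0.0569 by edgeR). Scaling moved the median of all genes by at most 0.023. With 2 libraries per group, MUC1, OVOL1 and MUC16 are limited by their low counts, and a missed call does not show that a gene did not differ.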

Other observations

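Markers of ovarian clear cell carcinoma and Müllerian tissue are a list of 5 of which 4 were tested. In the knockout 3 fell and none rose, beside 17.8% and 16.8% of all genes, and in the knockdown 2 rose and 2 fell, beside 7.62% and 8.22%. CDH6, a kidney-type cadherin, fell from 258 ± 0.620 to 5.61 ± 0.376 CPM (SD, n = 2) in the knockout (log2 -5.52, adjusted p = 2.36e-12 by edgeR) and from 90.0 ± 0.105 to 44.3 ± 1.16 CPM in the knockdown (-1.02). SPP1, which encodes osteopontin, fell from 1828 ± 175 to 815 ± 17.0 CPM in the knockout (-1.17) and rose from 2347 ± 22.7 to 3220.0 ± 31.8 CPM in the knockdown (0.46). PAX8, the Müllerian lineage factor, gave 0.07 in the knockout (adjusted p = 0.363 by edgeR) and fell in the knockdown (-0.49). NAPSA, the protease napsin A, fell in the knockout (-0.75), a call lost without wild-type replicate 1 or knockout replicate 1. It rose in the knockdown (0.85), a call lost without shRNA control replicate 1 (0.66), knockdown replicate 1 (0.94) or knockdown replicate 2 (0.74). All 4 also differed between the shRNA control and the wild type: CDH6 (-1.52) and NAPSA (-1.55) were lower and SPP1 (0.36) and PAX8 (0.32) higher in the control.

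Among 9 genes tied to the cleavage and signalling of EPCAM and MUC1, 4 rose (44.4%) and 2 fell (22.2%) in the knockout, beside 16.8% and 17.8% of all genes. CTNNB1, the beta-catenin gene, rose from 379.6 ± 13.9 to 597 ± 17.8 CPM (0.65), LEF1, a nuclear partner of beta-catenin, from 0.711 ± 0.339 to 3.33 ± 0.209 CPM (2.24), and FHL2, an adaptor that binds the EPCAM intracellular domain, fell from 148 ± 11.7 to 84.6 ± 0.0373 CPM (-0.80). In the knockdown LEF1 gave 0.16 and CTNNB1 -0.11, and neither passed the test.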
